A study of Mus musculus with 6 samples.

Results

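The miR-130/miR-301 and miR-148/miR-152 families were followed in mouse lung by 7 of the 1963 mature miRNA probes on the array: mmu-miR-130a-3p, mmu-miR-130b-3p, mmu-miR-301a-3p and mmu-miR-301b-3p of the first family, and mmu-miR-148a-3p, mmu-miR-148b-3p and mmu-miR-152-3p of the second. The members were chosen by the miRNA name printed in the files, after their levels, the agreement of their spots and their difference between saline and bleomycin on these same arrays had been seen, so those values are given as a description and not as a test. Total RNA came from whole lung of C57BL/6 littermate mice aged 8 to 10 weeks. The untreated WT group comprised 3 mice given saline only, the WT-BLM group comprised 3 mice given 1.5 U/kg of bleomycin (BLM) into the trachea, and both were killed at day 21. BLM is a chemotherapy drug whose toxicity to the lung makes it the common agent for experimental fibrosis. Each mouse was measured on 1 one-dye array, where every miRNA had 2 spots. IKBM mice, which the study also used, are not analysed here.

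A miRNA guides a silencing complex to messenger RNAs that pair with its seed, the run from base 2 to base 8 of its 5′ end. The miR-130/miR-301 family is known from the pulmonary vessel wall and from adipocytes, where it represses PPARγ, and miR-130a is expressed in endothelial and mesenchymal cells. The miR-148/miR-152 family is known for repressing the DNA methyltransferase Dnmt1 and is widely expressed. The sequences below show how the families relate, with the seed in capitals and each strand written 5′ to 3′ as the array lists it.

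miR-130a-3p: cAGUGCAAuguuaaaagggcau
miR-130b-3p: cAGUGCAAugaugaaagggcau
miR-301a-3p: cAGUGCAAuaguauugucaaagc
miR-301b-3p: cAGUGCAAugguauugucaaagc
miR-148a-3p: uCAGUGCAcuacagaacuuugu
miR-148b-3p: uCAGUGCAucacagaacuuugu
miR-152-3p: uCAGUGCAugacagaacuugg

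The letters CAGUGCA are common to all 7, at bases 2 to 8 of the 3 miR-148/miR-152 members and at bases 1 to 7 of the 4 miR-130/miR-301 members, so that the seeds are offset by 1 base. Only the 3 miR-148/miR-152 members held this run at bases 2 to 8, which was 0.153% of the 1963 probes. The miR-130/miR-301 seed, AGUGCAA, was held at bases 2 to 8 by 8 probes, or 0.408%, of which 4 were members. Some members differed from each other at few bases. Counting positions from 1 at the 5′ end and writing the base of the first-named miRNA first, miR-130a-3p and miR-130b-3p differed by U11A and A13G, and miR-301a-3p and miR-301b-3p by A10G alone. miR-148a-3p and miR-148b-3p differed by C9U and U10C, miR-148b-3p and miR-152-3p by C10G and U20G, and miR-148a-3p and miR-152-3p by C9U, U10G and U20G. The last pairs were compared over the 21 bases of miR-152-3p, which ends 1 base before the others. Signal shared between such near neighbours cannot be told apart on this array.

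For 6 of the 7 members the array sequence was identical to the mature sequence of RefSeq (mouse build GRCm38.p6). miR-148b-3p lay at chr15:103285185-103285206 on the plus strand, within the span of Copz1, and miR-152-3p at chr11:96850439-96850459 on the plus strand, within the span of Copz2, a pair of related genes for coat proteins of transport vesicles. miR-148a-3p lay at chr6:51269829-51269850 on the minus strand, within the span of Gm38821. miR-130a-3p lay at chr2:84741116-84741137 on the minus strand, in no annotated gene other than its own. miR-301a-3p lay at chr11:87113054-87113076 on the plus strand, within the span of Ska2, a gene of the mitotic spindle. miR-130b-3p lay at chr16:17124071-17124092 on the minus strand, within the span of 2610318N02Rik, with 257 bases between its hairpin and that of miR-301b.

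Of the 7 members, 5 passed the detection filter and entered the fit: miR-130a-3p, miR-301a-3p, miR-148a-3p, miR-148b-3p and miR-152-3p. Detection on an array required a mean intensity of 3 SD above the median of the empty spots, and the fit took the 275 probes that met this on 3 or more of the 6 arrays. Detected probes ranged from 132 to 365 per array and were fewest in WT mouse 3 (132) and WT-BLM mouse 1 (176), the arrays with the highest SD of the empty spots, 59.3 and 45.2 against 8.01 to 18.1 on the others. The tested probes stood at a median of 129 above the empty spots in WT mouse 3, against 224 to 282 on the others. In whole lung, fewer cells of a type and less RNA per cell cannot be told apart. Groups of 3 limit the precision of every value, where the smallest two-sided p of an exact permutation test is 0.10.

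Among the miR-148/miR-152 members, miR-148b-3p had the most distinct groups. Its normalized log2 intensity was 8.13, 7.83 and 8.14 in WT mice 1, 2 and 3, against 8.79, 8.53 and 8.97 in WT-BLM mice 1, 2 and 3. Each WT-BLM mouse stood above each WT mouse, with 0.40 between the highest WT and the lowest WT-BLM value. The probe was detected on 2 of 3 WT and 3 of 3 WT-BLM arrays, and the highest WT value, that of WT mouse 3, is from the array on which it was not detected. The means were 8.03 ± 0.18 and 8.76 ± 0.22 (SD, n = 3), a log2 fold change of WT-BLM over WT of 0.73 with a standard error of 0.23 and a 95% confidence interval from 0.20 to 1.26 in limma, or 1.66-fold. It was 1 of 11 probes, or 4% of those tested, whose WT-BLM values all lay above the WT values, and of these it had the largest distance between the groups. By fold change it held place 10 of 275. From the first of its spots alone the groups overlapped and the log2 fold change was 0.22, and in the values normalized by the authors the groups overlapped with a ratio of 1.37, both described further on.

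miR-148a-3p, which differs from miR-148b-3p at the 2 positions given above, was close to level. Its log2 intensity was 8.70, 8.73 and 8.56 in WT mice against 8.69, 8.53 and 8.63 in WT-BLM mice. The groups overlapped, and the log2 fold change was -0.05 with a standard error of 0.20 and an interval from -0.52 to 0.42. That interval holds folds from 0.698 to 1.34 and so does not show that the level was the same.

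For miR-152-3p the WT mice spread widely. Its log2 intensity was 10.31, 9.87 and 9.15 in WT mice against 10.13, 10.09 and 9.81 in WT-BLM mice. All 3 WT-BLM values lay within the WT range. The lowest value was that of WT mouse 3, the array with the weak signal, and the log2 fold change was 0.23 with a standard error of 0.32 and an interval from -0.53 to 0.99. It was -0.09 without WT mouse 3 and 0.48 without WT mouse 1.

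In the miR-130/miR-301 family, miR-130a-3p had 1 WT-BLM mouse apart from the other two. Its log2 intensity was 11.25, 11.29 and 11.00 in WT mice against 10.77, 11.56 and 10.79 in WT-BLM mice. WT-BLM mouse 2 was above every WT mouse and the remaining WT-BLM mice were below every WT mouse. The means were 11.18 ± 0.16 and 11.04 ± 0.45 (SD, n = 3), and the log2 fold change was -0.14 with a standard error of 0.28 and an interval from -0.79 to 0.52. It was -0.40 without WT-BLM mouse 2 and -0.002 without WT-BLM mouse 1.

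miR-301a-3p was steady in WT mice and low in a single WT-BLM mouse. Its log2 intensity was 7.81, 7.77 and 7.82 in WT mice against 7.24, 7.86 and 7.95 in WT-BLM mice. WT-BLM mouse 1 lay below the WT values and the other two above them, so that the groups overlapped. The log2 fold change was -0.12 with a standard error of 0.25 and an interval from -0.71 to 0.48, and it was 0.11 without WT-BLM mouse 1 and -0.25 without WT-BLM mouse 3. The probe was detected on 4 of the 6 arrays, 2 in each group. It was not detected in WT mouse 3, which had the highest WT value, nor in WT-BLM mouse 1, which had the low value.

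miR-130b-3p and miR-301b-3p did not pass the filter. miR-130b-3p was detected on no WT array and on 2 WT-BLM arrays. Its log2 intensity was 6.58, 6.81 and 6.49 in WT mice against 6.43, 6.88 and 6.62 in WT-BLM mice, with overlapping groups, and no fold is given because the level lay at the edge of detection. The limit followed the empty spots of each array, with an SD of 18.1 in WT mouse 2 and 8.01 in WT-BLM mouse 3. Of these mice, miR-130b-3p was detected only in WT-BLM mouse 3, although its level was lower there. miR-301b-3p was detected on none of the 6 arrays, with log2 values from 6.18 to 6.43.

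**Figure D1:**
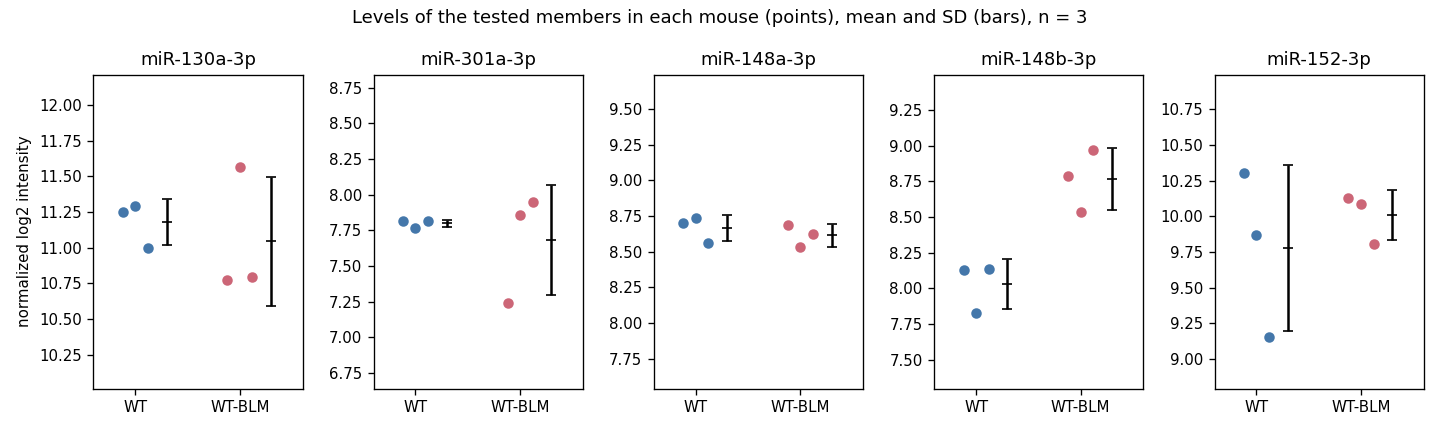
Normalized log2 intensity (y axis, each panel spanning the same number of log2 units) of the 5 tested members in untreated WT and WT-BLM mice; points are mice 1 to 3 from left to right, and the bar beside them is the mean with the SD (n = 3). The miR-148b-3p groups are apart (up to 8.14 in WT and from 8.53 in WT-BLM), while the groups of the other 4 members overlap.

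No member had an adjusted p under 0.05 in limma with Benjamini-Hochberg adjustment, where 0 of the 275 tested probes (0%) did. At an unadjusted p under 0.05 there were 5 probes, or 1.82%, a count that went from 1 without WT-BLM mouse 3 to 20 without WT mouse 3. Groups without overlap in either direction were found for 1 of the 5 tested members and for 13 of 275 probes, or 4.73%. These rates come from the contrast with which the members were chosen, and nothing is read from the members' counts against them. In the miR-130/miR-301 family 0 of 2 tested members were higher in WT-BLM, with a median log2 fold change of -0.13, and in the miR-148/miR-152 family 2 of 3 were higher, with a median of 0.23. The first median was 0.05 without WT-BLM mouse 1, -0.30 without WT-BLM mouse 2 and 0.26 with discordant pairs left out. The second median was -0.085 without WT mouse 3, 0.48 without WT mouse 1 and -0.004 from the first spots alone. Over all tested probes 155 of 275, or 56.4%, were higher and the median was 0.04. Without normalization between arrays, 4 of the 5 tested members were higher.

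**Figure D2:**
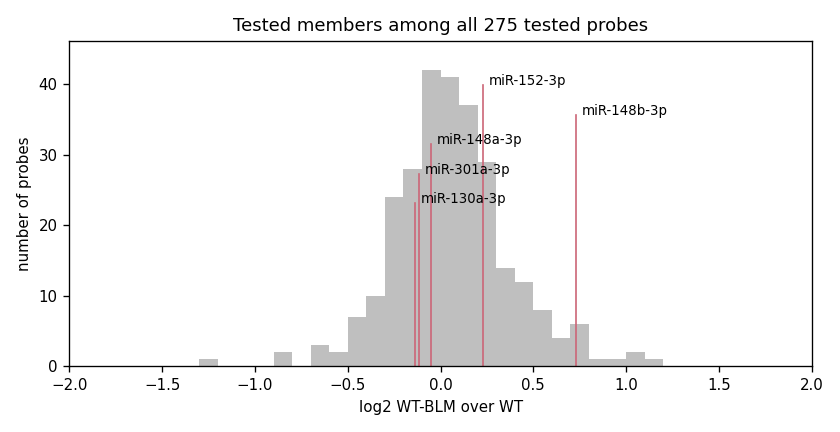
Histogram of the log2 fold change of WT-BLM over WT (x axis) for the 275 tested probes (y axis, number of probes), with a line at each tested member; line height has no meaning. miR-148b-3p stands at 0.73, in the right tail, and the other 4 members lie between -0.14 and 0.23, near the median of 0.04.

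The 2 spots of a probe on an array hold the same probe sequence, so their agreement shows what each value rests on. A pair of spots with a log2 difference above 1 was called discordant. Of the 30 spot pairs of the 5 tested members, 7, or 23.3%, were discordant, against 96 of 1650, or 5.82%, over all tested probes. As spot agreement was among the measures seen when the members were chosen, this share is a description only.

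For miR-148b-3p the spots were discordant in WT mice 1 and 2 and on no other array. In WT mice 1, 2 and 3 the first spot read 364, 409 and 164 intensity units above the empty spots, and in WT-BLM mice it read 353, 407 and 377. The second spot read 135, 66.5 and 118 in WT mice against 344, 377 and 391 in WT-BLM mice. In WT mice 1 and 2 the first spot lay within or just above the range of the WT-BLM spots, which was 344 to 407, while the second spot of every WT mouse was below that range. The difference of the first from the second spot was 1.17, 1.59 and 0.39 on the log2 scale in WT mice and between -0.08 and 0.13 in WT-BLM mice. Within the second spot, the spread of brightness was 35.8% in WT mouse 1 and 14% in WT mouse 2, against 4% to 10.3% in the other 10 spots of the probe, where the median over tested probes was 5.49% to 11.1% per array.

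The group difference of miR-148b-3p therefore depended on the spot used. From the first spot alone the log2 values were 8.72, 8.62 and 8.33 in WT mice against 8.81, 8.60 and 8.93 in WT-BLM mice. These groups overlapped, with a log2 fold change of 0.22 and a standard error of 0.23. From the second spot alone they were 7.54, 7.03 and 7.94 in WT mice against 8.77, 8.47 and 9.01 in WT-BLM mice. These did not overlap, with a log2 fold change of 1.24 and a standard error of 0.31. The share of all tested probes without overlap in the second spot alone is not given here, so this separation is a description only. With the discordant pairs left out, 1 WT mouse remained beside 3 WT-BLM mice and the log2 fold change was 0.63 with a standard error of 0.33, where the lone WT mouse was assumed to vary like the others. That mouse was WT mouse 3, on whose array the probe was not detected.

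miR-130a-3p had 3 discordant pairs, in WT mouse 1 and in WT-BLM mice 1 and 3. Its first spot read 1320, 3140 and 1160 above the empty spots in WT mice against 838, 4460 and 1010 in WT-BLM mice. Its second spot read 3200, 3680 and 1480 in WT mice against 2500, 4530 and 2720 in WT-BLM mice. The first spot was the dimmer on all 6 arrays, by 0.04 to 1.94 on the log2 scale. The WT-BLM mice that were low in the mean of both spots are those whose spots were discordant. The log2 fold change was -0.31 from the first spot and 0.03 from the second (standard errors 0.47 and 0.29). With the discordant pairs left out, 2 WT mice and a single WT-BLM mouse remained, the one with the highest level, and the difference of 0.42 has no spread of its own in WT-BLM.

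miR-301a-3p had 1 discordant pair, in WT-BLM mouse 1, where the first spot read 173 and the second 40.7 above the empty spots. This is the mouse in which its level was low. The first spot alone gave a log2 fold change of 0.13 and the second alone -0.37, with standard errors of 0.20 and 0.37. miR-152-3p had 1 discordant pair, in WT-BLM mouse 3, where the first spot read 470 and the second 1180. From its first spot the log2 fold change was -0.004 and from its second 0.46, with standard errors of 0.42 and 0.30. The sign for miR-301a-3p differed between its spots. For miR-152-3p the value from the first spot was near 0 and gives no direction.

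miR-148a-3p had no discordant pair, and its spots differed by 0.47 at most on the log2 scale. Its direction nevertheless changed with the spot, from -0.23 with the first to 0.13 with the second, with standard errors of 0.20 and 0.25. In the first spot alone every WT-BLM mouse was below every WT mouse, with 8.76, 8.77 and 8.79 in WT mice against 8.49, 8.59 and 8.55 in WT-BLM mice. In the second spot alone the groups overlapped. The share of all tested probes without overlap in the first spot alone is not given here, so this separation is a description only.

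**Figure D3:**
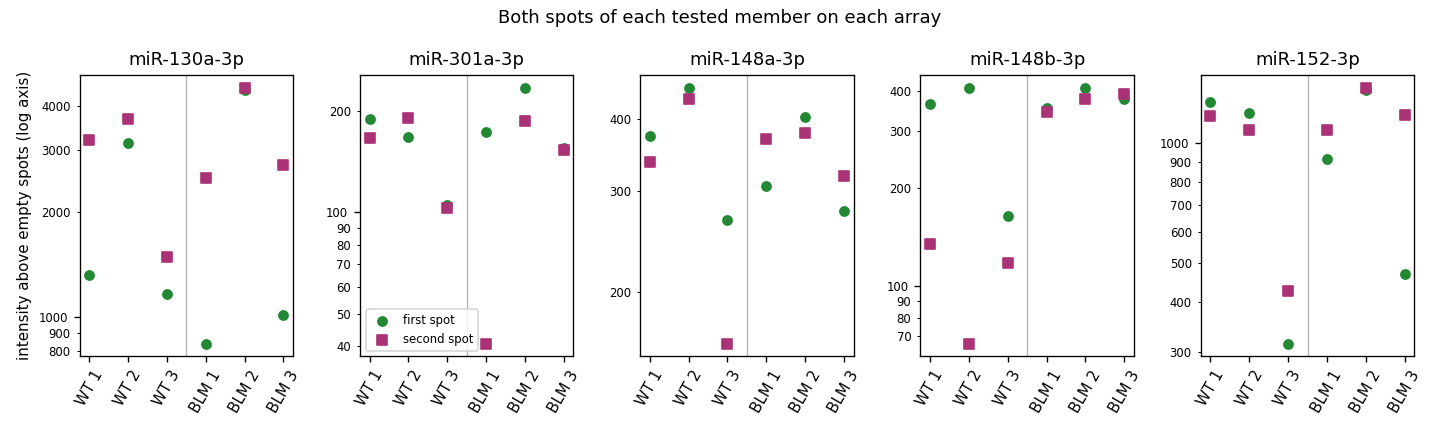
Intensity above the median of the empty spots (y axis, log axis, own range in each panel) of the first spot (circles) and second spot (squares) of the 5 tested members, on the arrays of WT mice 1 to 3 and WT-BLM mice 1 to 3 (x axis). In miR-148b-3p the second spot is below the first in all 3 WT mice (135, 66.5 and 118) and near it in the WT-BLM mice, and in miR-130a-3p the first spot is the lower on all 6 arrays.

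**Figure D4:**
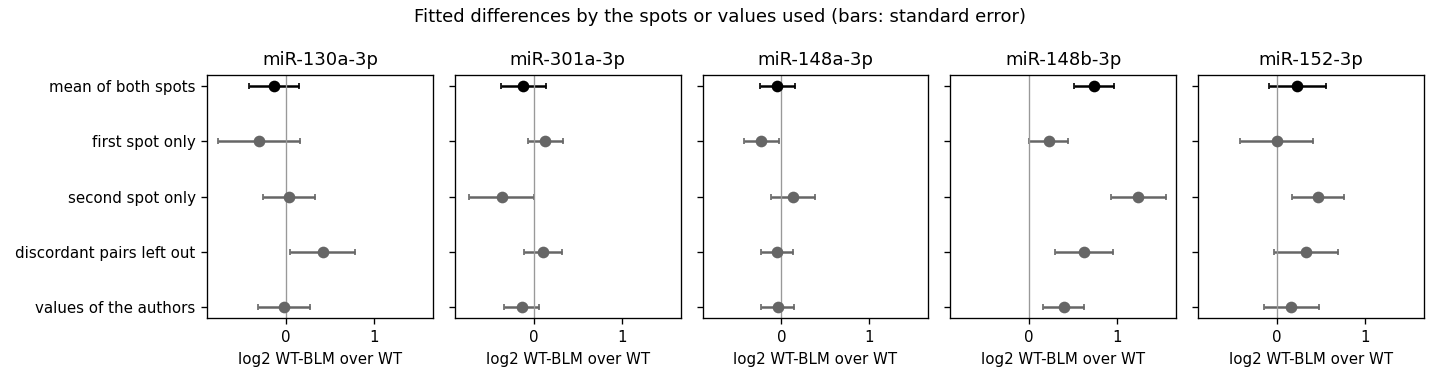
Log2 fold change of WT-BLM over WT (x axis) of the 5 tested members from the mean of both spots, from each spot alone, with discordant pairs left out, and from log2 of the values normalized by the authors with 50 added (rows); bars are the standard error, which is borrowed from the other mice where 1 mouse of a group remains (discordant pairs left out, miR-130a-3p and miR-148b-3p). miR-148b-3p is above 0 in each row, from 0.22 with the first spot to 1.24 with the second, and the other 4 members lie on both sides of 0.

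The intensities that the authors background-subtracted and normalized themselves, on a linear scale with 1 value per probe, gave overlapping groups for all 7 members. For miR-148b-3p these values were 197, 295 and 190 in WT mice against 325, 254 and 355 in WT-BLM mice. WT-BLM mouse 2 lay below WT mouse 2, and the ratio of the means, 311 ± 51.9 over 227 ± 58.7 (SD, n = 3), was 1.37. For miR-130a-3p they were 2264, 2545 and 1777 in WT mice against 1704, 3211 and 1777 in WT-BLM mice, again with WT-BLM mouse 2 highest, and the ratio of the means was 1.02, while the log2 fold change of the same values with 50 added was -0.02. For miR-148a-3p, miR-152-3p and miR-301a-3p the ratios were 0.97, 1.08 and 0.885. miR-130b-3p stood at 22 to 41 and miR-301b-3p at 6 to 21, where the median of all miRNA probes was 3 or 4 on each array.

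The spread between mice of 1 group differed among the members. The SD within groups, pooled over both, was 0.09 on the log2 scale for miR-148a-3p, 0.20 for miR-148b-3p, 0.27 for miR-301a-3p, 0.34 for miR-130a-3p and 0.43 for miR-152-3p, against a median of 0.37 over the tested probes. miR-148a-3p was thus the steadiest member and miR-152-3p the only one above that median. The members did not follow each other closely across the 6 arrays. Pearson's r was 0.42 between miR-130a-3p and miR-301a-3p, 0.45 between miR-148a-3p and miR-152-3p, 0.18 between miR-148b-3p and miR-152-3p and -0.29 between miR-148a-3p and miR-148b-3p. All 10 pairs lay between -0.53 and 0.45, over 6 arrays that share their normalization.

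Other strands of the same genes and seeds gave little signal. The array has a probe for the opposite arm of each of the 7 members, and 0 of these 7 were detected on any array, with at most 36.2 above the empty spots. The other 4 probes with the miR-130/miR-301 seed, miR-130c, miR-721, miR-6389 and miR-6341, were likewise detected on none, with at most 35.9 above the empty spots. Their sequences, shown for comparison with miR-130a-3p, hold the same seed.

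miR-130c: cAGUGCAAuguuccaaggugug
miR-721: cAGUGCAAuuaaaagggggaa
miR-6389: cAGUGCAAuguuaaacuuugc
miR-6341: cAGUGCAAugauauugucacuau

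The tested probes with the pattern most like each member were found by Pearson's r of the log2 values over the 6 arrays. For miR-148b-3p these were miR-34a-5p, a miRNA induced by p53, with r of 0.88, and let-7j with 0.81, whose log2 fold changes were 0.57 and 0.46. For miR-148a-3p they were miR-378a-3p (0.98) and miR-374c-5p (0.86), and for miR-152-3p miR-5126 (0.996) and miR-705 (0.97). For miR-130a-3p they were miR-30c-2-3p (0.86) and miR-30a-3p (0.83), both of them the less abundant strands of miR-30 hairpins. For miR-301a-3p they were let-7a-5p (0.99) and miR-143-3p (0.93), the second a smooth muscle miRNA. The array on which a member lay farthest from its median weighed on 1 of these 10 pairs in particular. Without WT-BLM mouse 1 the r of miR-301a-3p with miR-143-3p was -0.26, while that with let-7a-5p was 0.91, and on that array the spots of miR-143-3p differed by 4.01, those of let-7a-5p by -2.35 and those of miR-301a-3p by 1.21 on the log2 scale, first minus second. Without the farthest array of each member, the other pairs kept an r between 0.65 and 0.98. The spots of miR-378a-3p were also discordant, by 1.69, in WT-BLM mouse 2, the farthest array of miR-148a-3p, without which their r was 0.97. Each r is the highest of many and describes these arrays only.

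Marker miRNAs of the cell types in lung were present. The 2 endothelial, 7 epithelial, 5 leukocyte, 4 erythroid and 5 smooth muscle and mesenchymal markers all passed the filter of 3 arrays, whereas the liver marker miR-122-5p and both neural markers did not. Both endothelial markers (miR-126a-3p and miR-126a-5p) were higher in WT-BLM, with a median log2 fold change of 0.49 and a summed intensity above the empty spots of 4330 to 19800 in WT and 18500 to 24400 in WT-BLM mice. The 4 tested of 7 striated muscle markers were all lower, with a median of -0.72 and sums of 774 to 16900 in WT and 1300 to 1980 in WT-BLM mice. The WT-BLM sums thus lay within the WT range. Of the untested muscle markers, miR-208b-3p was detected on 0 WT and 2 WT-BLM arrays, miR-206-3p on 1 WT and 0 WT-BLM arrays, and miR-499-5p on none. The epithelial, leukocyte, erythroid and smooth muscle and mesenchymal lists had medians between -0.09 and 0.14. The sums of every list, the endothelial and striated muscle ones included, overlapped between the groups. These sums were taken before normalization between arrays, and the array of WT mouse 3 had weaker signal than the others. None of the markers passed the adjusted threshold, and their part in the members' values was not tested.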

How the data were processed

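Lung miRNA of 3 WT and 3 WT-BLM mice was measured on 6 one-dye arrays, and the sample labels set the groups. Deposited per array were the spots' median intensities as scanned and the SD within each spot, which is given here as a percent of that median. Deposited by the authors as well was 1 background-subtracted, normalized intensity per probe, rounded to whole numbers, whose normalization method is not given in the sources used here; over probes detected on all arrays its log2 correlated at 0.974 to 0.996 with the values computed here.

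In R 4.3.3 with limma 3.58.1, the background was corrected by normexp over all 5022 spots of an array (offset 50), controls were dropped, the remaining log2 values were brought to common quantiles, and a probe's value was the mean of its 2 spots. The offset shrinks the fold changes of dim probes. The median and SD of the 800 empty spots set detection, and 275 probes were tested with lmFit and eBayes and Benjamini-Hochberg adjustment at 0.05. The steps were tested on simulated data. Figures were drawn with matplotlib 3.10.9.

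The members and lists were chosen with earlier results of these data known. Named are the members, their opposite arms, probes of the same seeds, the 2 probes most like each tested member by Pearson's r and the cell type markers. Sequences come from the array and coordinates from RefSeq (GRCm38.p6). The labels do not say whether mice of the same number were paired, and the deviations of same-numbered mice from their group means correlated at 0.16, 0.03 and 0.07, so no block was used. The methods' t-test, other normalizations, offsets, filters and spots, and leaving out mice were tried. Slide and scan are not recorded, and batches were not tested.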

Additional observations from a re-analysis of the deposited data

How the results depend on the processing

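The count of probes with an adjusted p under 0.05 was 0 under every alternative run. The count with an unadjusted p under 0.05 went from 5 to 8 under cyclic loess, 46 without a filter on dim probes, 1 with probes detected on all 6 arrays, 8 with the first spot, 2 with the second, 16 without WT mouse 3 and WT-BLM mouse 1, and 9 with the methods' t-test paired by mouse number. With the replicate block it was 8. Leaving out 1 mouse gave 1 (WT-BLM mouse 3) to 20 (WT mouse 3), with 11 without WT mouse 1 and 3 without WT-BLM mouse 1. The miR-130/miR-301 median of -0.13 was 0.26 with discordant spots left out, where miR-130a-3p has 1 WT-BLM mouse, and -0.30 to 0.05 with 1 mouse left out, the 0.05 without WT-BLM mouse 1. The miR-148/miR-152 median of 0.23 was -0.004 with the first spot, 0.46 with the second, -0.14 without WT mouse 3 and WT-BLM mouse 1, and -0.085 (without WT mouse 3) to 0.48 (without WT mouse 1). The 2 of 5 members higher in WT-BLM became 4 of 5 without normalization, with the second spot and with discordant spots left out, 4 of 7 without a filter, which added miR-130b-3p and miR-301b-3p, 1 of 3 with probes detected on all 6 arrays, and 1 to 3 with 1 mouse left out, the 1 without WT mouse 3. The cause was not tested. miR-148b-3p was higher in WT-BLM under all 18 alternatives that held it, at 0.22 to 1.24 and at 0.61 to 0.84 with 1 mouse left out. It was not in the run with probes detected on all 6 arrays. The alternatives reuse the same arrays, and from the first spot, at 0.22, its groups overlapped. The other 4 tested members changed sign under 2 to 4 alternatives each. Some of these values were near 0, such as -0.004 for miR-152-3p from the first spot and 0.003 for miR-148a-3p without normalization. The median of all tested probes, 0.04, became -0.11 with scaling to the 75th percentile, where miR-148b-3p stood 0.72 above it. The replicate block changed no other call, and no slide block could be run. Signal over background limits miR-130b-3p and miR-301b-3p.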
